A study of Homo sapiens with 8 samples.

Results

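The ZBTB genes encode transcription factors that carry a BTB domain near the amino terminus and zinc fingers toward the carboxy terminus. They were taken from the expression table by symbol, as every gene named ZBTB with a number and at most one trailing letter, and the identifier with the highest mean was kept where a symbol had several. This gave 41 genes of the 65975 Ensembl identifiers in the table, and the rule did not use any measured change. A673 cells, an established cell line from a patient with Ewing Sarcoma, were treated with 2 μM JIB-04, an inhibitor of Jumonji-domain histone demethylases, or with vehicle (DMSO) for 36 hours. Each group had 4 RNA-seq libraries, and the 8 libraries are the whole series. Neither group carried a genetic change made for the study, and all cells came from 1 line. Each group was treated in quadruplicate, and the sources used here do not say whether these were independent experiments, so the p-values below measure only the spread between these samples.

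The BTB domain lets these proteins pair with themselves or with each other and recruits corepressor complexes built around NCOR1, SIN3A and histone deacetylases, while the zinc fingers choose the DNA sequence. Most members described so far repress transcription, although some also activate it. Other proteins with a BTB domain, such as the KLHL family, use the same fold to bind the CUL3 ubiquitin ligase. The numbered ZNF genes share the zinc fingers with the ZBTB genes but mostly have another or no amino-terminal domain, and the comparison asked whether ZBTB genes followed the higher expression that the ZNF-numbered genes showed with JIB-04.

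Promoter sequences ran from 250 bases before to 50 bases after the transcription start. The set of RefSeq promoters used here held 68 promoters for 35 of the 41 ZBTB genes. ZBTB6, ZBTB10, ZBTB16, ZBTB17, ZBTB40 and ZBTB41 had no entry in this set, and all of these except ZBTB16 rose at least 2-fold with JIB-04. The sequences below are those of ZBTB21 and ZBTB11, which rose and whose promoters hold both an E-box and a cyclic AMP response element, of ZBTB49, which rose and holds an E-box, and of ZBTB12, the member with the largest fall, which holds neither. They were chosen after the values and the matches were seen. They read 5′ to 3′ on the strand of the gene, from GRCh38.p14, at chr21:42010311-42010610 on the minus strand for ZBTB21, chr3:101677083-101677382 on the minus strand for ZBTB11, chr4:4290001-4290300 on the plus strand for ZBTB49 and chr6:31902037-31902336 on the minus strand for ZBTB12. Capitals mark matches on either strand to CACGTG (the E-box, bound by MYC with MAX and by USF factors), to TGACGTCA (the cyclic AMP response element, bound by CREB and ATF factors) and to GCGTG (the core bound by the aryl hydrocarbon receptor with ARNT, and part of the site of hypoxia-inducible factors), which reads CACGC on the other strand. In ZBTB12 the first run of capitals is a pair of matches that share a base.
ZBTB21: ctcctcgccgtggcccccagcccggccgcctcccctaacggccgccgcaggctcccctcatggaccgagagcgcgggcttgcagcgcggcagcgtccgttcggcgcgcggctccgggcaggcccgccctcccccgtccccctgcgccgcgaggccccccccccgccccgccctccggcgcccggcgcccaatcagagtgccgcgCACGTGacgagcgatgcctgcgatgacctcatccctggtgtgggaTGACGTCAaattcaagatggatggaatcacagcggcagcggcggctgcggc
ZBTB11: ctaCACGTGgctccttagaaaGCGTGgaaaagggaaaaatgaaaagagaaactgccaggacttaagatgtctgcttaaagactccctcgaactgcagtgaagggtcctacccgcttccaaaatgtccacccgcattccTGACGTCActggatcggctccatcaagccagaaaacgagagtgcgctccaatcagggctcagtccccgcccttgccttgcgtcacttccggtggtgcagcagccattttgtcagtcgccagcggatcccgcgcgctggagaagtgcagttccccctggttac
ZBTB49: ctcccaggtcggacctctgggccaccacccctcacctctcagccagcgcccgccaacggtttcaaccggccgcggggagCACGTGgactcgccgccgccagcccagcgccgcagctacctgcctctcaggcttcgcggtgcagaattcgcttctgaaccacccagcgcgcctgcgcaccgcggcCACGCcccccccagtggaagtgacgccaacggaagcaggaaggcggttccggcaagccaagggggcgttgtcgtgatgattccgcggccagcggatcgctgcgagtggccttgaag
ZBTB12: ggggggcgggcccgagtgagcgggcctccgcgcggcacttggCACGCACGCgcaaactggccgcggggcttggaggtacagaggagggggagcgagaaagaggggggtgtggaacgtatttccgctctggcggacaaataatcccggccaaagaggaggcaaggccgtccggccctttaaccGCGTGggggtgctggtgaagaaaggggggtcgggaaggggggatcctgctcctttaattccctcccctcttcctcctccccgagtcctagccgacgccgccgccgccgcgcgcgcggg

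The E-box letters CACGTG were in a promoter of 8 of the 35 matched ZBTB genes and in 7.26% of all 35116 RefSeq promoters of the same length. A gene was counted when any of its promoters held the letters, whereas the share of all promoters is per promoter. The 35 genes have 68 promoters, so counts by gene tend to come out larger than a share by promoter. The 8 genes were ZBTB11, ZBTB21, ZBTB37 and ZBTB49 among the 9 matched members that rose, ZBTB25 among the 14 that fell, ZBTB1 and ZBTB24 among the 6 that did not pass the test, and ZBTB32, which was not tested. TGACGTCA was in promoters of ZBTB11, ZBTB21 and ZBTB48, which rose, and of ZBTB38, which fell, against 1.85% of all promoters. GCGTG was in promoters of 21 of the 35 genes, 4 of the 9 that rose and 9 of the 14 that fell, against 36.5% of all promoters. TGATGNAA, the amino acid response element read by ATF4 with CEBP factors, was in the promoter of ZBTB38 alone among these genes, against 3.62% of all promoters. TCCTGCNA, the unmethylated site of the member ZBTB33 (Kaiso), was in promoters of 5 genes (ZBTB18, ZBTB20, ZBTB38, ZBTB47 and ZBTB7C), against 4.69% of all promoters. Only 9 of the 14 members that rose were matched, against all 14 that fell. Many of the strongest rises are thus missing, and the counts do not compare the directions evenly. These matches describe letters in the sequence and not binding.

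Of the 41 ZBTB genes, 35 had a mean of at least 1 FPKM (fragments per kilobase of transcript, scaled to the mapped fragments of the library) over the 8 libraries and were tested. The groups were compared by limma on a log2(FPKM + 0.5) scale, on which fold changes of weakly expressed genes come out too small. A gene counted as higher or lower when its p, adjusted by Benjamini and Hochberg over all 17460 genes tested, was under 0.05, and 2-fold stands for a difference of 1 or more on that scale. The libraries carried the markers of the labelled cell type: all 8 Ewing Sarcoma markers were at 1 FPKM or more on average (CD99, NKX2-2, NR0B1, STEAP1, FLI1, CCND1, PRKCB and BCL11B, summing to 1854 to 2305 FPKM with JIB-04 and 3087 to 3356 FPKM in vehicle). None of 8 markers of other cell types averaged 1 FPKM over the 8 libraries. Their sums were 1.46 to 2.02 FPKM with JIB-04 and 0.902 to 1.24 FPKM in vehicle, most of it from PECAM1. PECAM1 averaged 1.29 FPKM with JIB-04 and 0.568 FPKM in vehicle. Summed FPKM per library were 1175407 to 1237186 with JIB-04 and 1346289 to 1370436 in vehicle, and mitochondrial genes made up 4.59% to 5.54% with JIB-04 and 9.99% to 10.6% in vehicle. The absolute depth is unknown. Steps between low values put the depth relative to vehicle replicate 1 at 0.768 to 0.927 with JIB-04 and at 0.824 to 1 in vehicle.

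JIB-04 moved the ZBTB genes in both directions in equal number. Of the 35 tested, 14 were higher with JIB-04 (40.0%, against 34.2% of all genes tested), 14 were lower (40.0%, against 38.0%) and 7 missed the threshold, while 72.2% of all genes passed in either direction. At least 2-fold, 9 were higher (25.7%, against 13.1% of all genes) and 4 were lower (11.4%, against 11.8%). The JIB-04 and vehicle values did not overlap in 27 of the 35, and the same held for 67.3% of all genes tested. The median log2 fold change of the 35 was 0.04, with quartiles of -0.61 and 0.82, and that of all genes was -0.07. Rescaling FPKM to TPM turned these medians to 0.20 and 0.08 and gave 16 ZBTB genes higher and 11 lower, against 40.4% of all genes higher and 31.1% lower. The plot of every tested ZBTB gene shows that the members form a continuous spread of changes and not a group that moved together.

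**Figure D1:**
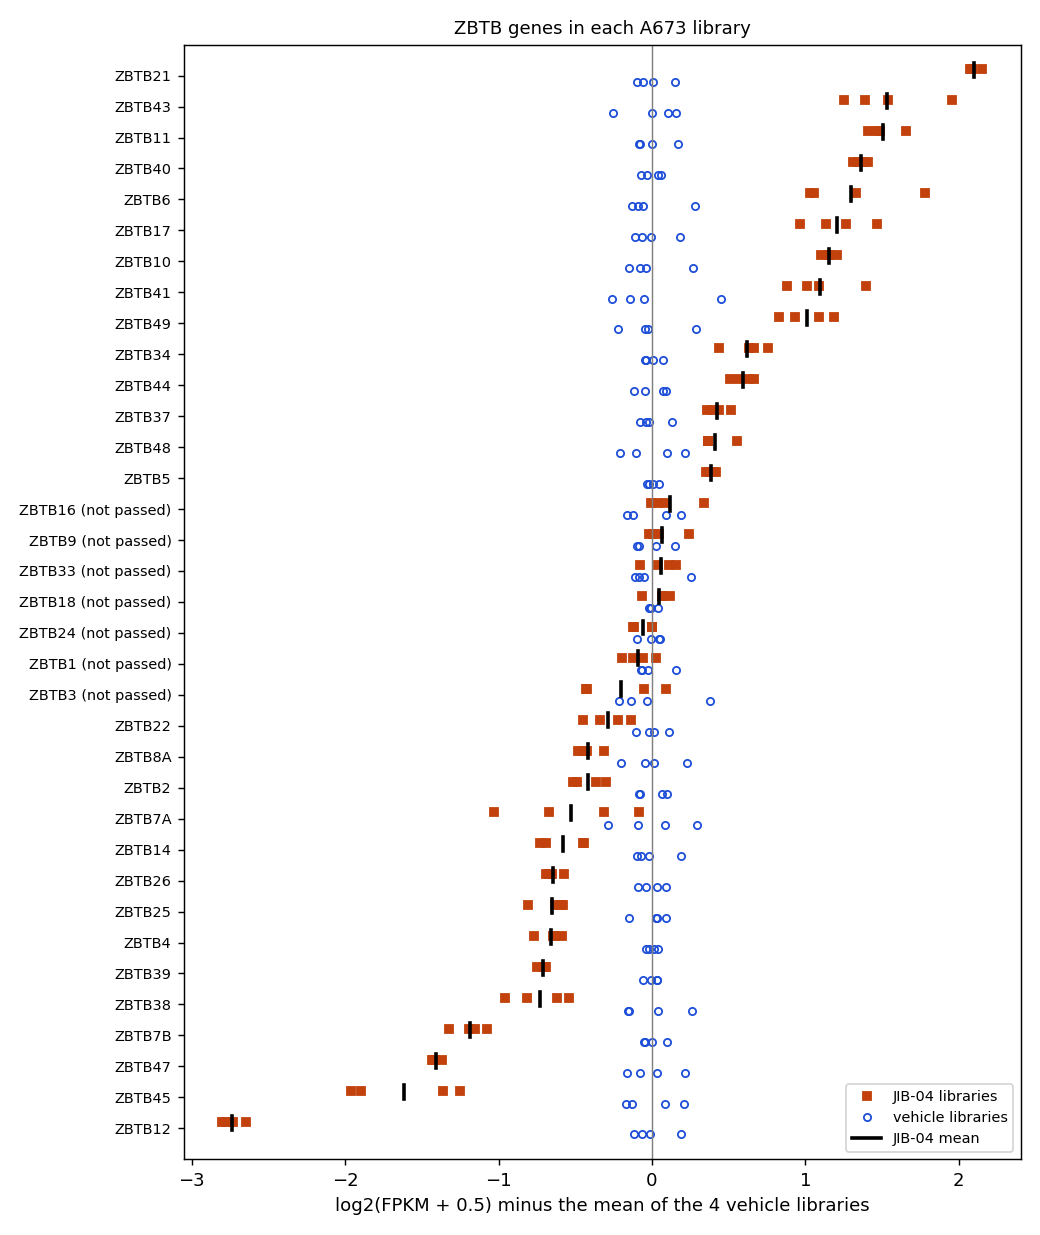
Level of each of the 35 tested ZBTB genes in every library, as log2(FPKM + 0.5) minus the mean of the 4 vehicle libraries; squares are JIB-04 libraries, circles are vehicle libraries and black bars are JIB-04 means. The JIB-04 means run from 2.10 for ZBTB21 to -2.74 for ZBTB12, and the 7 genes that did not pass the test lie between 0.12 and -0.20.

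ZBTB21, a repressor that binds another member, ZBTB14, had the largest rise. ZBTB21 (ENSG00000173276, chromosome 21 from 41986831 to 42010387 on GRCh38) had 48.4, 46.0, 46.1 and 45.7 FPKM with JIB-04, against 10.1, 10.5, 9.76 and 11.7 FPKM in vehicle. Every JIB-04 library was far above every vehicle library, and the JIB-04 libraries lay close together. Its means were 46.5 ± 1.24 FPKM with JIB-04 and 10.5 ± 0.839 FPKM in vehicle (mean ± SD, 4 libraries in each group, log2 fold change 2.10 with a standard error of 0.07, adjusted p = 1.05e-08 by limma). It held the 3rd highest level of the 35 tested members with JIB-04 and the 21st in vehicle. Its partner ZBTB14 went the other way, at 8.50 ± 0.961 FPKM with JIB-04 and 12.9 ± 1.25 FPKM in vehicle (SD, 4 libraries in each group, log2 fold change -0.58, limma adjusted p = 0.000579).

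ZBTB43, ZBTB11 and ZBTB40 followed, each rising by more than 2-fold. ZBTB43 (ENSG00000169155, chromosome 9 from 126805006 to 126838210), which in the mouse acts in developing male germ cells, had 74.5, 55.7, 50.1 and 45.6 FPKM with JIB-04, against 21.1, 15.7, 20.3 and 18.8 FPKM in vehicle. The JIB-04 libraries of ZBTB43 were more scattered than those of ZBTB21, with replicate 1 highest, but none came near the vehicle range (log2 fold change 1.53 with a standard error of 0.15, adjusted p = 1.29e-05 by limma). ZBTB11 (ENSG00000066422, chromosome 3 from 101648889 to 101677495), which supports the expression of nuclear genes for mitochondrial proteins, had 34.0, 32.8, 39.1 and 34.7 FPKM with JIB-04, against 11.3, 12.0, 11.4 and 13.6 FPKM in vehicle. All JIB-04 libraries of ZBTB11 lay above all vehicle libraries (log2 fold change 1.50 with a standard error of 0.08, adjusted p = 2.24e-07 by limma). The antisense gene ZBTB11-AS1, which overlaps it by 1021 bases, averaged 0.695 FPKM with JIB-04 and 1.76 FPKM in vehicle. ZBTB40 (ENSG00000184677, chromosome 1 from 22428838 to 22531157), whose locus is known from association studies of bone density, had 37.1, 38.1, 39.2 and 39.8 FPKM with JIB-04, against 15.3, 15.1, 14.0 and 14.4 FPKM in vehicle. Both groups of ZBTB40 were tight and far apart (log2 fold change 1.36 with a standard error of 0.05, adjusted p = 3.87e-08 by limma).

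ZBTB17 (MIZ1), the partner through which MYC represses genes such as CDKN1A, was the most abundant member under both conditions. ZBTB17 (ENSG00000116809, chromosome 1 from 15941869 to 15976132) had 104, 120, 84.5 and 95.0 FPKM with JIB-04, against 48.9, 41.1, 39.8 and 43.0 FPKM in vehicle. The lowest JIB-04 library stood well above the highest vehicle library, with a wider spread among the JIB-04 libraries. Its means were 101 ± 15.0 FPKM with JIB-04 and 43.2 ± 3.99 FPKM in vehicle (SD, 4 libraries in each group, log2 fold change 1.21 with a standard error of 0.11, adjusted p = 6.4e-06 by limma).

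The remaining 4 members that rose at least 2-fold were weakly to moderately expressed. ZBTB6 (ENSG00000186130, chromosome 9 from 122908056 to 122913330) had 11.1, 11.3, 19.0 and 13.8 FPKM with JIB-04, against 4.96, 4.85, 4.71 and 6.41 FPKM in vehicle. Its highest value was in JIB-04 replicate 3, and the groups stayed apart (log2 fold change 1.30 with a standard error of 0.17, adjusted p = 0.0001 by limma). ZBTB10, a repressor of genes for Sp transcription factors that also binds variant telomere repeats, had 5.90, 5.87, 6.12 and 5.67 FPKM with JIB-04, against 2.08, 2.30, 2.22 and 2.96 FPKM in vehicle. The JIB-04 values of ZBTB10 nearly coincided (log2 fold change 1.15 with a standard error of 0.11, adjusted p = 1.14e-05 by limma). ZBTB41 had 7.78, 7.06, 10.3 and 8.24 FPKM with JIB-04, against 3.23, 3.47, 2.94 and 5.11 FPKM in vehicle. Vehicle replicate 4 of ZBTB41 stood above the other vehicle libraries but below every JIB-04 library (log2 fold change 1.09 with a standard error of 0.17, adjusted p = 0.000302 by limma). ZBTB49, an activator of CDKN1A, had 6.91, 8.37, 7.78 and 6.42 FPKM with JIB-04, against 2.84, 4.25, 3.33 and 3.28 FPKM in vehicle. Its groups were separate and its log2 fold change was 1.01 (standard error 0.13, limma adjusted p = 8.45e-05). ZBTB49 sat at the 2-fold limit, with a log2 fold change of 0.92 with a pseudocount of 1, 0.99 after quantile normalization and 0.94 to 1.11 without any 1 library. ZBTB41 was at 0.99 without JIB-04 replicate 3.

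ZBTB12, described as a barrier to dedifferentiation in human pluripotent stem cells, had the largest fall. ZBTB12 (ENSG00000204366, chromosome 6 from 31899607 to 31901992) had 2.65, 2.85, 2.50 and 2.55 FPKM with JIB-04, against 23.4, 19.5, 18.8 and 20.3 FPKM in vehicle. The JIB-04 libraries were nearly equal and lay far below the vehicle libraries. Its means were 2.64 ± 0.153 FPKM with JIB-04 and 20.5 ± 2.00 FPKM in vehicle (SD, 4 libraries in each group, log2 fold change -2.74 with a standard error of 0.09, adjusted p = 1.24e-08 by limma). It held the 33rd highest level of the 35 tested members with JIB-04 and the 7th in vehicle. The gene lies within C2, a complement gene on the opposite strand that averaged 0.383 FPKM with JIB-04 and 0.174 FPKM in vehicle.

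ZBTB45, ZBTB47 and ZBTB7B were the other members that fell at least 2-fold. ZBTB45 (ENSG00000119574, chromosome 19 from 58513530 to 58538911), a regulator of glial differentiation in the mouse, had 7.76, 8.46, 4.96 and 5.23 FPKM with JIB-04, against 24.1, 18.5, 19.0 and 22.0 FPKM in vehicle. JIB-04 replicates 3 and 4 were lower than replicates 1 and 2, and all were below the vehicle libraries (log2 fold change -1.62 with a standard error of 0.17, adjusted p = 2.4e-05 by limma). ZBTB47 (ENSG00000114853, chromosome 3 from 42653684 to 42665854) had 0.609, 0.619, 0.658 and 0.604 FPKM with JIB-04, against 2.96, 2.16, 2.32 and 2.55 FPKM in vehicle. With JIB-04 this gene was under 1 FPKM in every library, so it reached the test only through its vehicle level (log2 fold change -1.41 with a standard error of 0.14, adjusted p = 1.07e-05 by limma). ZBTB7B (ENSG00000160685, chromosome 1 from 155002630 to 155018522), known as ThPOK for its part in the fate of helper T cells, had 8.02, 8.50, 7.81 and 7.09 FPKM with JIB-04, against 17.9, 17.8, 19.8 and 18.5 FPKM in vehicle. The groups of ZBTB7B were tight and separate (log2 fold change -1.19 with a standard error of 0.07, adjusted p = 5.69e-07 by limma).

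**Figure D2:**
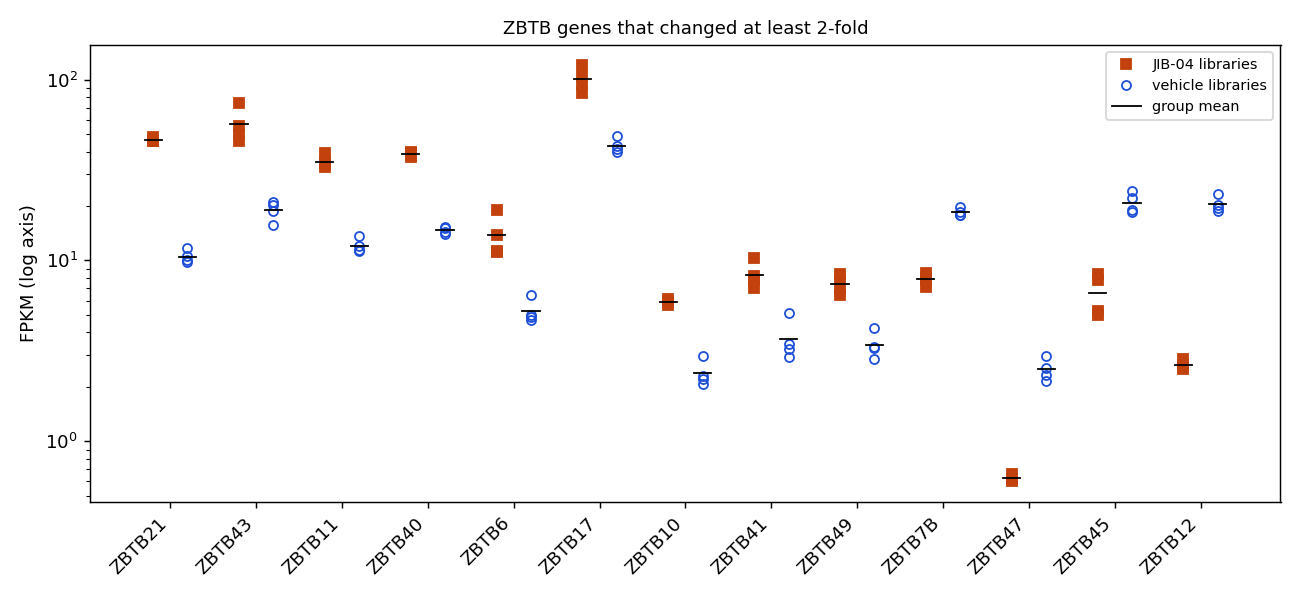
FPKM of the 13 ZBTB genes that changed at least 2-fold, on a log axis, with JIB-04 libraries as squares on the left and vehicle libraries as circles on the right of each gene and black bars at the group means. In all 13 genes the groups are apart, from ZBTB17 at 101 FPKM with JIB-04 and 43.2 FPKM in vehicle down to ZBTB47 at 0.623 FPKM with JIB-04 and 2.50 FPKM in vehicle.

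The 5 members listed here for a reported role at the promoter of CDKN1A, the gene for the cell cycle inhibitor p21, split by direction. The list was chosen with earlier results of these data known and may leave out other members with such a role. All 5 passed the test: ZBTB17, ZBTB49 and ZBTB5 rose and ZBTB2 and ZBTB4 fell, and none of their groups overlapped, where 72.2% of all genes passed and 67.3% did not overlap. ZBTB5, a repressor of CDKN1A, had 23.7, 24.0, 24.3 and 23.3 FPKM with JIB-04, against 18.2, 17.7, 18.7 and 17.8 FPKM in vehicle (log2 fold change 0.39, limma adjusted p = 7.78e-05). ZBTB2, another repressor of CDKN1A, had 18.8, 19.1, 21.9 and 20.9 FPKM with JIB-04, against 25.7, 25.5, 28.4 and 29.1 FPKM in vehicle (log2 fold change -0.42, limma adjusted p = 0.000613). CDKN1A itself had 288, 287, 236 and 245 FPKM with JIB-04, against 26.3, 20.6, 23.7 and 20.1 FPKM in vehicle (log2 fold change 3.51 with a standard error of 0.10, adjusted p = 7.17e-09 by limma). CDKN2B, another target of ZBTB17, was listed at 0 in all 8 libraries. MYC was at 235 ± 13.8 FPKM with JIB-04 and 177 ± 4.85 FPKM in vehicle (SD, 4 libraries in each group, log2 fold change 0.40, limma adjusted p = 4.93e-05).

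Of the 3 members that bind methylated CpG, ZBTB4 and ZBTB38 fell and ZBTB33 did not pass the test. Among all genes tested, 38.0% were lower. ZBTB4 had 10.5, 10.8, 9.46 and 10.4 FPKM with JIB-04, against 17.0, 16.3, 16.7 and 16.1 FPKM in vehicle (log2 fold change -0.66 with a standard error of 0.06, adjusted p = 1.11e-05 by limma). ZBTB38 had 7.67, 7.26, 6.27 and 5.64 FPKM with JIB-04, against 11.7, 10.2, 10.3 and 13.8 FPKM in vehicle (log2 fold change -0.73 with a standard error of 0.13, adjusted p = 0.000565 by limma). The groups of both genes were separate, as in 67.3% of all genes tested, with more scatter in ZBTB38. ZBTB33 (Kaiso), which is bound by p120 catenin, had 15.2, 13.3, 15.7 and 14.5 FPKM with JIB-04, against 13.2, 13.5, 13.0 and 16.9 FPKM in vehicle, and these overlapped (log2 fold change 0.06, limma adjusted p = 0.614). CTNND1, which encodes p120 catenin, was at 181 ± 9.25 FPKM with JIB-04 and 112 ± 6.98 FPKM in vehicle (SD, 4 libraries in each group, log2 fold change 0.68, limma adjusted p = 4.08e-06).

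The pair of members that bind telomere repeats both rose, where 34.2% of all genes tested were higher. ZBTB48 (TZAP), which binds the telomere repeat and trims long telomeres, had 38.3, 38.2, 43.6 and 38.2 FPKM with JIB-04, against 27.4, 31.7, 25.5 and 34.3 FPKM in vehicle (log2 fold change 0.41 with a standard error of 0.10, adjusted p = 0.00361 by limma). Its groups did not overlap, as in 67.3% of all genes tested, although vehicle replicate 4 came close, and ZBTB10 is given above.

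Of 7 members listed here for blood and immune lineages, 4 were tested. This list too was chosen with earlier results known and may leave out other members with such roles. None of these 4 rose and 2 fell, where 34.2% of all genes tested were higher and 38.0% lower. ZBTB7B and ZBTB25 fell, ZBTB1 and ZBTB16 did not pass the test, and ZBTB20, ZBTB32 and ZBTB46 were under the limit of 1 FPKM. ZBTB25, a repressor in T cells, had 4.58, 4.52, 3.83 and 4.41 FPKM with JIB-04, against 6.34, 7.25, 7.59 and 7.22 FPKM in vehicle, with no overlap (log2 fold change -0.65, limma adjusted p = 0.000155). ZBTB1, needed for lymphoid development in the mouse, had 22.2, 21.1, 24.8 and 23.3 FPKM with JIB-04, against 23.2, 23.9, 23.1 and 27.2 FPKM in vehicle. ZBTB16 (PLZF), a factor of innate-like lymphocytes and of stem cells, had 4.01, 5.04, 3.86 and 4.14 FPKM with JIB-04, against 4.49, 3.53, 3.41 and 4.17 FPKM in vehicle. The groups of ZBTB1 and ZBTB16 overlapped (limma adjusted p = 0.307 and 0.417). In bulk RNA, fewer cells with a transcript and less transcript per cell cannot be told apart.

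In the ZBTB7 subfamily ZBTB7B fell as above, ZBTB7A fell by a call that many alternatives did not keep and ZBTB7C was not tested. ZBTB7A (LRF), a repressor of fetal globin genes, had 13.8, 11.7, 6.92 and 9.03 FPKM with JIB-04, against 18.1, 11.9, 13.7 and 15.6 FPKM in vehicle. JIB-04 replicate 1 lay inside the vehicle range, and the JIB-04 values were spread more widely than the means were apart. The log2 fold change was -0.53 (standard error 0.21, limma adjusted p = 0.0431), and the exact two-sided permutation test over the 8 libraries gave p = 0.0857. Across the alternatives its adjusted p ran from 0.0126 without JIB-04 replicate 1 to 0.124 in TPM, and it missed the threshold without JIB-04 replicate 3 (0.0971) or 4 (0.0980) and without vehicle replicate 1 (0.109), 3 (0.0633) or 4 (0.0895). For every member without overlap that exact test gives 0.0286, the smallest p that 4 libraries against 4 allow.

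The other members that rose did so by less than 2-fold, with no overlap between the groups. ZBTB44 had 31.2, 28.6, 31.8 and 29.8 FPKM with JIB-04, against 18.3, 21.2, 21.0 and 19.3 FPKM in vehicle (log2 fold change 0.59, limma adjusted p = 3.03e-05). ZBTB34 averaged 11.0 ± 1.05 FPKM with JIB-04 and 6.95 ± 0.282 FPKM in vehicle, and ZBTB37 averaged 8.94 ± 0.449 FPKM with JIB-04 and 6.54 ± 0.449 FPKM in vehicle. Their log2 fold changes were 0.62 and 0.42 (limma adjusted p = 0.000117 and 0.000833). ZBTB37 overlaps GAS5, a noncoding host gene of small nucleolar RNAs on the opposite strand that averaged 731 FPKM with JIB-04 and 421 FPKM in vehicle. ZBTB25, which fell, overlaps MTHFD1 by 14352 bases on the opposite strand, and MTHFD1 averaged 105 FPKM with JIB-04 and 202 FPKM in vehicle. ZBTB8A overlaps ZBTB8OS on the opposite strand (71.7 FPKM with JIB-04 and 56.2 FPKM in vehicle), and ZBTB38 overlaps PXYLP1 on the same strand (4.59 FPKM with JIB-04 and 6.71 FPKM in vehicle). The library kit keeps strand, but the sources used here do not say whether strand was used in the counting, so the share of reads from such partners is unknown.

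ZBTB39, ZBTB26, ZBTB22 and ZBTB8A made up the rest of those that fell. ZBTB39 had 12.0, 12.1, 11.6 and 12.1 FPKM with JIB-04, against 19.7, 20.3, 20.3 and 19.0 FPKM in vehicle, and its groups were among the tightest of the family (log2 fold change -0.71 with a standard error of 0.05, adjusted p = 2.3e-06 by limma). ZBTB26 averaged 5.76 ± 0.231 FPKM with JIB-04 and 9.30 ± 0.548 FPKM in vehicle (SD, 4 libraries in each group, log2 fold change -0.65, limma adjusted p = 3.75e-05). ZBTB22 and ZBTB8A had the smallest support, with means of 7.25 and 1.17 FPKM with JIB-04, against 8.93 and 1.74 FPKM in vehicle, and limma adjusted p of 0.0184 and 0.0224. In TPM these became 0.192 and 0.0814, and ZBTB8A also missed the threshold without JIB-04 replicate 2 (0.0507) or without vehicle replicate 3 (0.0724).

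Besides ZBTB33, ZBTB1 and ZBTB16, the members that did not pass the test were ZBTB9, ZBTB18, ZBTB24 and ZBTB3, and the JIB-04 and vehicle values overlapped in all 7. ZBTB24, whose loss causes an immunodeficiency with unstable centromeres, had 8.89, 8.85, 9.70 and 9.68 FPKM with JIB-04, against 9.02, 9.66, 10.0 and 10.1 FPKM in vehicle (log2 fold change -0.06, limma adjusted p = 0.466). Its target CDCA7, a gene of the same syndrome, averaged 30.4 ± 1.68 FPKM with JIB-04 and 70.4 ± 3.48 FPKM in vehicle (SD, 4 libraries in each group, log2 fold change -1.20, limma adjusted p = 1.16e-07). Of the other genes of that syndrome, DNMT3B, a DNA methyltransferase that reached the test only through its vehicle level, averaged 0.579 ± 0.0498 FPKM with JIB-04 and 2.34 ± 0.139 FPKM in vehicle (SD, 4 libraries in each group, limma adjusted p = 7.01e-06), and HELLS, a chromatin remodeler, was at 48.6 ± 5.66 FPKM with JIB-04 and 47.8 ± 3.63 FPKM in vehicle (SD, 4 libraries in each group, limma adjusted p = 0.839). ZBTB18, a repressor of neuronal development, averaged 11.1 FPKM with JIB-04 and 10.7 FPKM in vehicle, and ZBTB9 averaged 23.6 FPKM with JIB-04 and 22.5 FPKM in vehicle. In TPM, ZBTB18 and ZBTB9 passed as higher (limma adjusted p = 0.0240 and 0.0233). ZBTB3 was at 4.45 ± 0.907 FPKM with JIB-04 and 5.19 ± 1.11 FPKM in vehicle (SD, 4 libraries in each group, limma adjusted p = 0.306).

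The 6 members under the limit were ZBTB20, ZBTB32, ZBTB42, ZBTB46, ZBTB7C and ZBTB8B. ZBTB20, a repressor of alpha-fetoprotein in the liver, had 0.264, 0.277, 0.368 and 0.396 FPKM with JIB-04, against 1.12, 0.843, 1.31 and 0.788 FPKM in vehicle. ZBTB42, a gene of skeletal muscle, had 0.132, 0.249, 0.296 and 0.264 FPKM with JIB-04, against 0.902, 0.704, 0.628 and 0.916 FPKM in vehicle. Neither gene's groups overlapped, and with no filter on level they passed as lower (limma adjusted p = 0.00117 and 0.000727). ZBTB46, a factor of dendritic cells, had 0.502, 0.878, 1.22 and 0.869 FPKM with JIB-04, against 0.395, 0.613, 0.269 and 0.196 FPKM in vehicle, which overlapped, and passed as higher with no filter (limma adjusted p = 0.0342). ZBTB7C averaged 0.344 FPKM with JIB-04 and 0.223 FPKM in vehicle, ZBTB8B was under 0.1 FPKM throughout, and ZBTB32 was listed at 0 in every vehicle library and in JIB-04 replicates 1 and 4.

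The ZBTB genes were set beside the 445 ZNF-numbered genes that were tested, of 553 in the table. Of those, 253 were higher with JIB-04 (56.9%), 105 were lower (23.6%) and 87 missed the threshold, against 14 higher and 14 lower of the 35 ZBTB genes. At least 2-fold, the shares of higher genes were close, 25.7% for ZBTB and 24.9% for ZNF-numbered genes, whereas 11.4% of ZBTB and 4.49% of ZNF-numbered genes were lower. The median log2 fold change was 0.04 for ZBTB genes and 0.42 for ZNF-numbered genes, a difference of -0.38. In each JIB-04 library, relative to the vehicle mean, the ZBTB median lay between -0.08 and 0.06 and the ZNF median between 0.41 and 0.48. In the vehicle libraries the ZBTB median lay between -0.07 and 0.02 and the ZNF median between -0.06 and 0.06. The ZBTB medians with JIB-04 thus spanned about the range of the vehicle libraries, while every ZNF median with JIB-04 was above it. With the 434 protein-coding ZNF-numbered genes, the count was 247 higher and 104 lower and the median again 0.42. These counts and medians are a description of the families, and the difference was not tested.

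**Figure D3:**
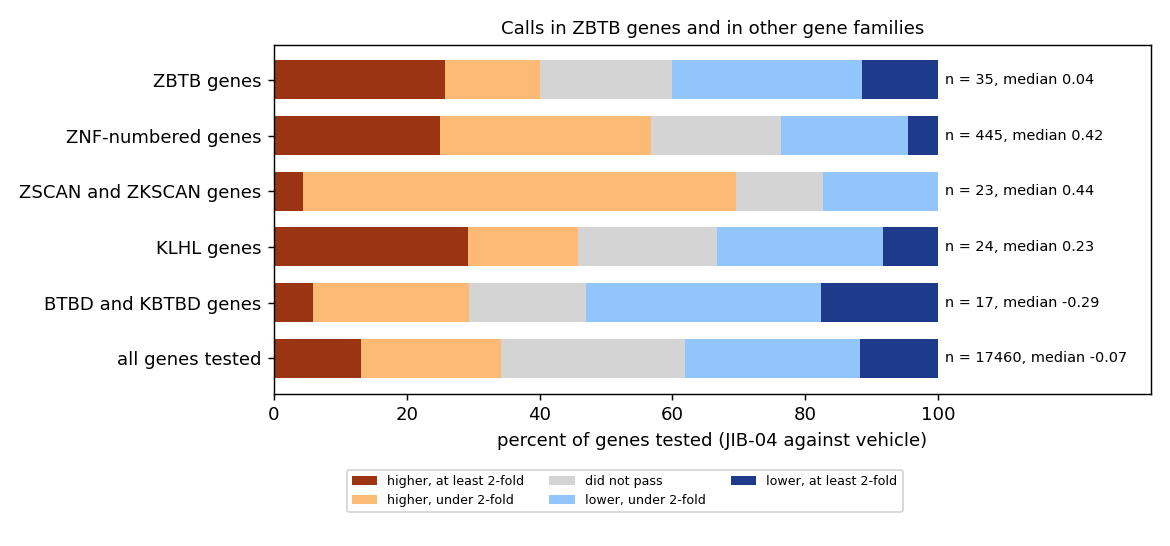
Percent of tested genes in each family that were higher or lower with JIB-04, split at 2-fold, with the number tested and the median log2 fold change at the right of each bar. ZBTB genes were 40.0% higher and 40.0% lower, ZNF-numbered genes 56.9% higher and 23.6% lower, and all genes tested 34.2% higher and 38.0% lower.

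Families that share 1 of the domains of the ZBTB proteins gave a mixed picture, to be read beside 34.2% higher and 38.0% lower of all genes tested. The ZSCAN and ZKSCAN genes, which have zinc fingers behind a SCAN domain, had 16 higher (69.6%) and 4 lower (17.4%) of 23 tested, with a median log2 fold change of 0.44. The KLHL genes, which have a BTB domain with Kelch repeats, had 11 higher (45.8%) and 8 lower (33.3%) of 24, with a median of 0.23. The BTBD and KBTBD genes, also with a BTB domain, had 5 higher (29.4%) and 9 lower (52.9%) of 17, with a median of -0.29. The ZBTB median of 0.04 lay between the last of these values and that of the KLHL genes.

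Genes for BTB zinc finger proteins with another symbol also went both ways: of 8 in the list, 7 were tested, 5 rose and 2 fell, where 34.2% of all genes tested were higher and 38.0% lower. BCL6, a repressor of germinal center B cells, averaged 143 ± 6.05 FPKM with JIB-04 and 39.8 ± 2.91 FPKM in vehicle (SD, 4 libraries in each group), above the level of every ZBTB gene under JIB-04 (log2 fold change 1.83 with a standard error of 0.06, adjusted p = 1.48e-08 by limma). GZF1 averaged 39.8 ± 2.94 FPKM with JIB-04 and 15.7 ± 0.708 FPKM in vehicle (SD, 4 libraries in each group, log2 fold change 1.32, limma adjusted p = 1.74e-07). PATZ1, in contrast, averaged 28.0 ± 1.42 FPKM with JIB-04 and 59.3 ± 3.23 FPKM in vehicle (SD, 4 libraries in each group, log2 fold change -1.07, limma adjusted p = 2.67e-07). MYNN, HIC1 and ZNF131, which also counts among the ZNF-numbered genes, rose with log2 fold changes of 1.49, 1.06 and 0.69, HIC2 fell by 0.23 on the log2 scale but did not pass in TPM, and BCL6B was under the limit. HIC1 was under 1 FPKM in every vehicle library and reached the test only through its JIB-04 level.

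Genes for subunits of corepressor complexes were mostly lower with JIB-04. Besides NCOR1, SIN3A and histone deacetylases, the list held genes such as CTBP1, CTBP2, RCOR1, MTA1, MTA2, MTA3 and CHD4. It is therefore wider than the complexes named above for BTB domains. Of 23 tested, 16 fell (69.6%, against 38.0% of all genes tested), 6 rose (26.1%, against 34.2%) and 1 did not pass the test, with a median log2 fold change of -0.63 against -0.07 for all genes, and in TPM 13 fell and 6 rose, where 31.1% of all genes were lower and 40.4% higher. GPS2, a subunit of the NCOR1 complex, averaged 48.9 ± 2.03 FPKM with JIB-04 and 99.5 ± 3.62 FPKM in vehicle (SD, 4 libraries in each group, log2 fold change -1.02, limma adjusted p = 1.03e-07). CHD4, the ATPase of the NuRD complex, had 186, 161, 174 and 186 FPKM with JIB-04, against 393, 372, 380 and 343 FPKM in vehicle (log2 fold change -1.07, limma adjusted p = 2.91e-07). HDAC1, a histone deacetylase of the SIN3A and NuRD complexes, averaged 99.6 ± 5.25 FPKM with JIB-04 and 183 ± 8.89 FPKM in vehicle (SD, 4 libraries in each group, log2 fold change -0.87, limma adjusted p = 5.14e-07). The groups of these genes did not overlap. CUL3, the scaffold of the ubiquitin ligase bound by BTB adaptors, rose to 191 ± 13.8 FPKM with JIB-04, against 107 ± 8.16 FPKM in vehicle (SD, 4 libraries in each group, log2 fold change 0.83, limma adjusted p = 4.11e-06). The other 5 of the 6 genes of the ligase list fell, against 38.0% of all genes, among them the adaptor KEAP1 with a log2 fold change of -1.03 and NEDD8, the modifier that activates cullins, with -0.53 (limma adjusted p = 2.77e-07 and 3.46e-05), and in TPM 4 of them did.

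Summed over the 35 tested members, ZBTB transcripts made up 595 to 646 FPKM with JIB-04 and 464 to 497 FPKM in vehicle. The 9 members that rose at least 2-fold held 295 to 330 FPKM of this with JIB-04, against 108 to 120 FPKM in vehicle. The other 26 summed to 300 to 316 FPKM with JIB-04 and 355 to 378 FPKM in vehicle. The 9 were picked by their rise in these same values, so the contrast between the 9 and the 26 follows from that choice. Leaving out ZBTB17, the most abundant, the sums over all other tested members were 500 to 542 FPKM with JIB-04 and 424 to 454 FPKM in vehicle. The order of the members by level changed as well: ZBTB43 was 2nd with JIB-04 and 10th in vehicle, and ZBTB45 was 27th with JIB-04 and 6th in vehicle.

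Members that rose and members that fell differed in median base composition, with wide overlap. The GC content of the longest transcript in GENCODE had a median of 41.8% in the 14 that rose and 53.3% in the 14 that fell. The ranges were 32.5% to 62.3% and 38.2% to 65.4%, and the 7 that did not pass the test had a median of 42.8%. The 4 that fell at least 2-fold had 62.8% to 65.4%. ZBTB17, at 62.3%, had the highest GC content of the members that rose. Across the 35 genes the log2 fold change fell along GC content with a Spearman rho of -0.40 and a Pearson r of -0.48, as it did across 434 protein-coding ZNF-numbered genes (rho -0.50) and 12198 protein-coding genes (rho -0.33). These are correlations across genes measured in the same 8 libraries, and genes are not independent replicates. The ZBTB and ZNF-numbered genes had close median GC contents, 43.7% and 43.3%. With the trend of all protein-coding genes along GC removed, the median was 0.07 for ZBTB genes, 18 of 35 lying above the trend, and 0.35 for ZNF-numbered genes. Whether GC content had a part in the changes was not tested.

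**Figure D4:**
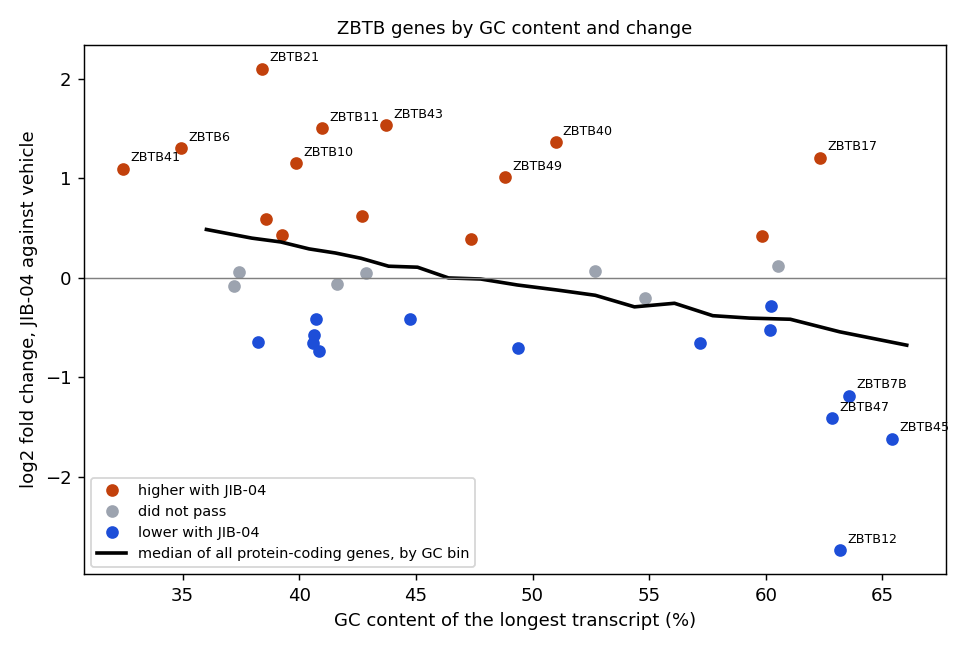
Log2 fold change of the 35 tested ZBTB genes against the GC content of their longest transcript, colored by call, with the line giving the median of all protein-coding genes in bins of GC content. ZBTB12, ZBTB45, ZBTB47 and ZBTB7B lie together at 62.8% to 65.4% GC below the line, and ZBTB17 lies above it at 62.3%.

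Neighboring ZBTB genes did not always move together. ZBTB6 and ZBTB26 lie on the same strand of chromosome 9, between 122908056 and 122931500, with a gap of 2236 bases, and had log2 fold changes of 1.30 and -0.65. ZBTB43 and ZBTB34 lie on the same strand further along chromosome 9, between 126805006 and 126885878, with a gap of 22455 bases, and both rose, with log2 fold changes of 1.53 and 0.62. ZBTB1 and ZBTB25 overlap head to head on chromosome 14 by 1502 bases, and ZBTB25 fell (-0.65) while ZBTB1 did not pass the test (-0.09). ZBTB8A, which fell, and ZBTB8B, which was not tested, lie 42741 bases apart on chromosome 1.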

How the data were processed

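The series holds 8 RNA-seq libraries of A673 cells, 4 with JIB-04 and 4 with vehicle. Groups came from the sample labels. The labels give directional mRNA libraries and single-end reads of 151 bp, and the methods of the study give 50 cycles. Per the submitters' processing notes the authors aligned reads with GSNAP to GRCh38 and used SAMtools and Cufflinks, whose FPKM values were used as deposited. FPKM hold no count, so no count model was run and the absolute depth is unknown. The annotation and the strand setting of the counting are not given in the sources used here. The table has 66095 entries. Entries were summed for 117 identifiers that had several, and 36 placeholder values in 13 genes, none a ZBTB gene, were left out with their genes. ZBTB12, ZBTB22 and ZBTB9 have further identifiers listed at 0.

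Genes averaging 1 FPKM or more were compared with limma 3.58.1 in R 4.3.3 (lmFit, eBayes with trend) on log2(FPKM + 0.5), with Benjamini-Hochberg adjustment over 17460 genes and a threshold of 0.05. Fold changes are JIB-04 minus vehicle. The fit was tested on simulated data. Families and lists were described by counts and medians, with no test of a list. Named with values were ZBTB genes changed at least 2-fold, those in a role list, the most abundant one, those under the limit, and up to 3 genes of each other list with the smallest adjusted p; ZBTB8A, ZBTB9, ZBTB14, ZBTB18, ZBTB22, ZBTB24, ZBTB26, ZBTB37, ZBTB39, ZBTB44, ZBTB3 and ZBTB34, and some further genes of the other lists (MYNN, HIC1, HIC2, ZNF131, DNMT3B, HELLS, MYC), were added after their values were seen. The members, lists and motifs were chosen with earlier results of these data known.

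The alternatives were pseudocounts of 0.1 and 1, no filter, a filter of 5 FPKM, TPM, median-ratio scaling, quantile normalization, no variance trend, an analysis of variance of each gene on FPKM as in the study, summed identifiers of a symbol, a replicate block and leaving out each library. Removal of the GC trend and the restriction to protein-coding ZNF-numbered genes were added after the data were seen. Coordinates and GC content are from GENCODE 29 (GRCh38), promoters from RefSeq (GRCh38.p14). Python 3.11.15 was used for the tables (pandas 2.3.3, numpy 2.4.6) and the plots (matplotlib 3.10.9).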

Additional observations from a re-analysis of the deposited data

Results flagged for a closer look

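In 4 of 70 groups of 4 libraries, 1 library stood apart from the others of its group by Dixon's criterion at 95%, and chance alone gives about 1 in 20 groups. ZBTB21 was at 48.4 FPKM in JIB-04 replicate 1, with the other JIB-04 libraries between 45.7 and 46.1 FPKM. ZBTB48 was at 43.6 FPKM in JIB-04 replicate 3, with each of the others at 38.2 or 38.3 FPKM. In vehicle replicate 4, ZBTB6 was at 6.41 FPKM and ZBTB33 at 16.9 FPKM, with the highest of the other vehicle libraries at 4.96 and 13.5 FPKM. Without any of these libraries the log2 fold changes of ZBTB21 and ZBTB48 stayed between 2.07 and 2.15 and between 0.34 and 0.48, and the calls of all 4 genes were unchanged.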

How the results depend on the processing

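Of the 35 tested ZBTB genes, all kept their direction and side of the threshold with pseudocounts of 0.1 and 1, quantile normalization and summed identifiers, as did the 30 that remained under a filter of 5 FPKM. ZBTB7A missed the threshold with no filter (adjusted p = 0.0887), in TPM (0.124), under median-ratio scaling (0.0509), in the analysis of variance (0.0902) and with no variance trend (0.0562), limma being the test in all but the analysis of variance. No direction was reversed among calls. Numbers of ZBTB genes without any 1 library were 14 higher throughout and 12 to 14 lower, 7 to 9 higher at least 2-fold and 4 lower at least 2-fold. The ZBTB median was 0.20 in TPM, 0.10 under median-ratio scaling and 0.01 to 0.06 without any 1 library. The ZBTB median minus the ZNF median was -0.25 with no filter, -0.29 with the GC trend removed and -0.43 to -0.37 without any 1 library, and the ZNF median was 0.35 with the GC trend removed. Under a filter of 5 FPKM, which leaves 12586 genes, 1526 of all genes were higher at least 2-fold, against 2294 of 17460. Same-numbered libraries of the groups share only a number: their deviations from the group means correlated between -0.06 and 0.08. With the replicate block, 14 ZBTB genes were higher and 13 lower (ZBTB8A missed the threshold, limma adjusted p = 0.0524), and 5900 genes in all were higher and 6618 lower. Precision is limited by 4 libraries a group and by the unknown depth, most of all for genes near 1 FPKM.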
